A study of Mus musculus with 8 samples.

Results

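The 10 genes described here make and control the protein folding machinery of the endoplasmic reticulum (ER): the chaperones Hspa5, Hsp90b1, Calr and Canx, the disulfide isomerases Pdia3, Pdia4 and Pdia6, and the transcription factors Ddit3, Xbp1 and Atf4 of the unfolded protein response. Every probe carrying one of these gene names, or an older alias, was taken, which gave 17 of the 41174 probes on the array. All 17 were among the 32775 probes tested, each detected above background by all arrays of some group. The genes were selected on pathway membership with earlier results from these same arrays in view, so their values are given as a description, and p-values from the fit across all probes are printed beside them without supporting a choice made on the same data.

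The study asked how haematopoietic stem cells (HSC) without the transcription factor E47 differ from wild-type (WT) HSC after transplantation. The 4 groups of 2 arrays were WT cells from primary recipients, E47 knockout (KO) cells from primary recipients, WT cells from secondary recipients and KO cells from secondary recipients; all cells came from a donor and had passed through at least 1 transplantation. Cells were sorted by flow cytometry, and their RNA was copied by a PCR of all transcripts before hybridisation to 1-colour Agilent arrays. The labels give no age, strain or knockout allele, and leave unsaid whether both arrays of a group came from independently collected cells; the p-values therefore cover array-to-array spread, which may be technical.

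The ER folds proteins that are bound for membranes and for secretion. Hspa5 (BiP) binds unfolded chains and holds the stress sensors Ern1 (IRE1), Eif2ak3 (PERK) and Atf6 inactive, Calr and Canx bind sugar-bearing chains, and the Pdia proteins form and exchange disulfide bonds. When unfolded protein accumulates, Ern1 splices Xbp1 mRNA, Eif2ak3 slows translation and so favours Atf4, which induces Ddit3 (CHOP), and cleaved Atf6 induces chaperone genes. Blood stem cells are known for a low rate of protein synthesis and for sensitivity to loss of protein quality control.

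Many ER chaperone genes carry the ER stress response element (ERSE), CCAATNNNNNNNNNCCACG, which is the site through which Atf6 is known to act with NF-Y. In the RefSeq promoter table (GRCm38.p6), which spans 250 bases before to 50 after each start, all 10 genes were found, and the letters of the element on either strand were present in 5 of them, Hspa5, Hsp90b1, Calr, Canx and Pdia6. The same letters were in 39 of 32851 promoters (0.119%). The 6 matches are printed with 20 bases on each side, 5′ to 3′ along the gene's strand, with the match in capitals, because this is the sequence the chaperone genes share.
Hspa5 chr2:34772005-34772063 (+): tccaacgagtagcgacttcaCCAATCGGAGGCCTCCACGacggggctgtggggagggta
Calr chr8:84847055-84847113 (-): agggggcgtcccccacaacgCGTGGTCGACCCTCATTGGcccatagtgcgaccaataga
Hsp90b1 chr10:86705618-86705676 (-): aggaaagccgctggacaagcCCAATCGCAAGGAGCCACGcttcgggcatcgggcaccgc
Hsp90b1 chr10:86705513-86705571 (-): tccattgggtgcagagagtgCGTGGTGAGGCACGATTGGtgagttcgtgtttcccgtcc
Canx chr11:50325780-50325838 (-): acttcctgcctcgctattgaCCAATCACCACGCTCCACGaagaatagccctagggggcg
Pdia6 chr12:17266471-17266529 (+): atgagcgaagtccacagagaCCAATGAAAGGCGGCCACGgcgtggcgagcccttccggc
A reverse match reads CGTGG first and ATTGG last, as in Calr and in the second match of Hsp90b1. With at most 1 of the 10 fixed bases changed, a match was present in 8 of the 10 genes (adding Pdia3, Pdia4 and Ddit3, not Xbp1 or Atf4) and in 494 of all promoters (1.5%). CCAAT alone, which the element contains, was in 9 of the 10 genes and in 37.4% of promoters. The other motifs searched on both strands were ERSE-II (0.0365% of promoters, 0 of the 10 genes), TGACGTG (2.01%, Hspa5 alone) and TGATGNAA (3.97%, 0 of the 10 genes). A match describes letters and does not show that a factor binds.

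**Figure D1:**
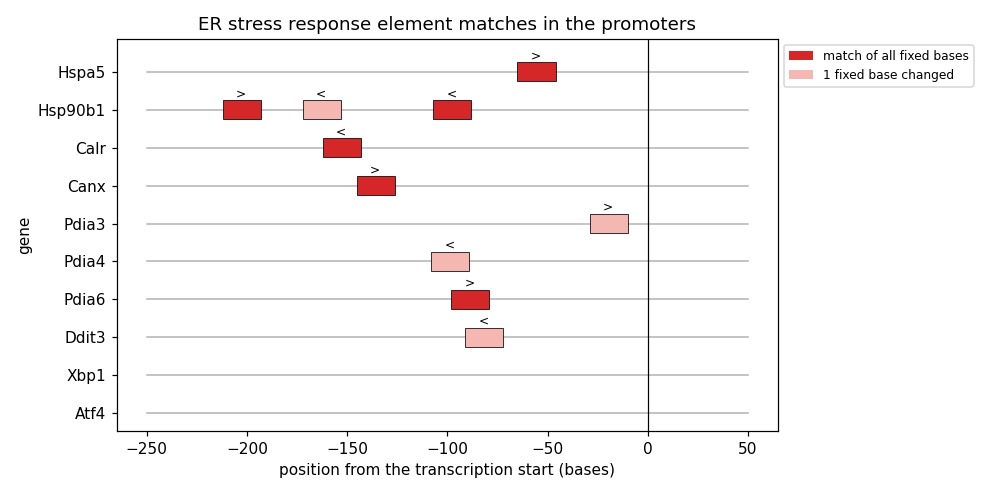
Position of matches to the ER stress response element in the 10 promoters, in bases from the transcription start; dark bars match all fixed bases, pale bars have 1 changed, and the arrowhead gives the strand. Hspa5 has its match closest to the start among the full matches, at 65 to 47 bases before it, and Hsp90b1 has 2 full matches.

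Array signal varied widely. The share of probes well above background ran from 35.4% to 90.7% over the 8 arrays, and was 41.9% and 35.4% on replicate 2 of the WT and KO primary groups against 72.2% or more elsewhere. Levels are log2 signal minus each array's 75th percentile, and on those 2 arrays a level under -2.18 (WT) or -1.20 (KO) is not above background. The WT arrays shared 1 of the 3 slides, and the KO arrays of primary and of secondary recipients filled the other 2. Slide and genotype cannot be told apart here, nor can slide and recipient among KO cells, whereas the WT comparison of recipients is within 1 slide. Tcfe2a, which encodes E47, had 2 probes, above background on 7 and on 8 arrays, and the labels do not say which exons were removed, so these values check nothing. All HSC markers listed (10 genes) were above background on some array, 9 or 10 of them on each of the 6 brighter arrays. Granulocyte and monocyte markers (13 genes) moved with the recipient: their summed signal, as a multiple of the 75th percentile, was 229 to 11100 in WT primary and 189 to 15900 in KO primary cells, against 8.41 to 17.6 and 14.4 to 32.7 in the secondary groups. Of these markers, 9 were lower in secondary cells without overlap, beside 10.6% of all probes, and 2 passed the test, beside 0.314%. Their part in the results that follow was not tested, and in such bulk samples fewer cells of a type and less RNA per cell cannot be told apart. Plasma cell markers (6 genes on the array), whose cells are rich in ER, summed to 1.19 to 8.67 over all arrays.

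Hspa5, the main ER chaperone of the Hsp70 family (probe at chr2:34598119-34598178, mm8), was higher in secondary than in primary recipients on every array. Its scaled log2 levels were -3.86 and -0.64 in WT primary cells and -4.84 and -3.18 in KO primary cells, neither of the latter above background. They were 2.89 and 3.37 in WT secondary cells and 3.98 and 3.50 in KO secondary cells. All 4 secondary arrays lay above all 4 primary arrays. Relative to the median probe, the log2 change was 7.09 (SE 0.98) over both genotypes (limma, Benjamini-Hochberg adjusted p = 0.0468), a larger rise than for 99.9% of probes tested. Within WT cells, on a single slide, it was 6.13 (SE 1.34), and within KO cells 8.13 (SE 1.34), where the floor of the array gives at least 108-fold. Only 103 of 32775 probes (0.314%) passed in this comparison, 101 of them higher, and Hspa5 is the 1 member among them. The call rests near the threshold: it was lost on leaving out any 1 of the 8 arrays (adjusted p from 0.0667 to 0.208), while the change stayed between 6.64 and 7.87.

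Hsp90b1 (Grp94), the ER form of Hsp90, had 2 probes that gave different patterns. Probe 1 (chr10:86128383-86128442) read -4.76 and 8.81 in WT primary, -3.19 and -3.42 in KO primary, 2.97 and 1.98 in WT secondary and 2.37 and -0.86 in KO secondary cells. The single high WT primary array was the one of low signal, and the replicates differed by 13.57, the widest gap of any member in that group. Probe 2 (chr10:86120824-86120883) read 2.30 and 3.62, 5.05 and 10.65, 4.06 and 3.61, and 4.04 and 1.55 in the same order. From primary to secondary recipients, the change was 2.78 (SE 2.55) for probe 1 and -1.56 (SE 1.60) for probe 2, and neither passed the test. In KO against WT primary cells, probe 1 gave -5.66 (SE 3.71) and probe 2 gave 4.55 (SE 1.87), so the probes of the gene disagreed in sign. Within KO cells, the change from primary to secondary recipients was 4.44 (SE 3.71) for probe 1 and -4.67 (SE 1.87) for probe 2. The probes again disagreed in sign, and no probe passed in that comparison.

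Calr and Canx are the lectin chaperones of the calnexin cycle. Calr probe 1 (chr8:87734735-87734794) read -0.09 and 11.13 in WT primary, 5.01 and 10.01 in KO primary, and 4.47 and 4.18 in KO secondary cells, with a mean of 4.78 (SD 0.30, n = 2) in WT secondary cells. Probe 2 (chr8:87732398-87732457) read 0.19 and -1.85, -0.20 and 7.63, 0.61 and 0.24, and -0.13 and -1.58. For probe 1 the secondary arrays lay close together and the primary arrays far apart, whereas for probe 2 KO primary replicate 2 alone stood apart. The change over both genotypes was -1.43 (SE 2.23) for probe 1 and -1.13 (SE 1.83) for probe 2. Canx had positive changes on each of its 3 probes. Canx probe 2 (chr11:50138547-50138606) read -7.06 and -2.62 in WT primary and -2.54 and -3.25 in KO primary cells, of which the KO replicate 1 alone was above background, against -0.04, -0.56, -0.87 and -0.13 in secondary cells. Its groups did not overlap, and its change was 3.99 (SE 1.07, limma adjusted p = 0.225). Canx probe 1 (chr11:50139727-50140508) read -0.65 and -0.71 in WT primary and 2.49 and 4.17 in WT secondary cells, a change of 4.77 (SE 1.07), but 2.36 and 2.10 in KO primary and 2.92 and 2.09 in KO secondary cells, a change of 0.65 (SE 1.07). For Canx probe 3 (chr11:50137968-50138027) the change over both genotypes was 2.52 (SE 1.39).

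**Figure D2:**
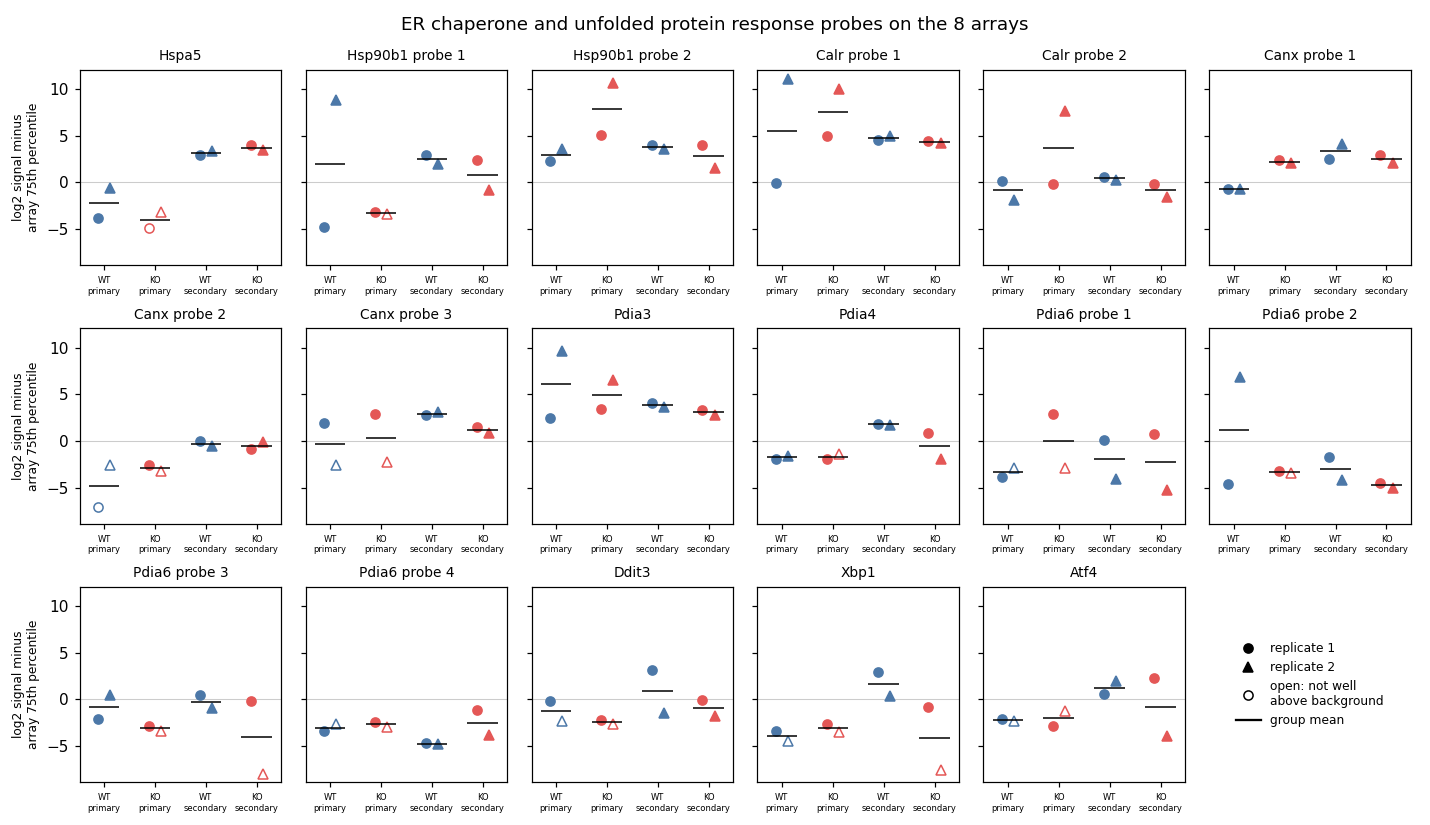
Scaled log2 level (log2 signal minus the array's 75th percentile) of each of the 17 probes by group; circles are replicate 1, triangles replicate 2, open marks are not well above background and lines are group means. Hspa5 separates secondary from primary arrays, whereas Calr, Pdia3 and Hsp90b1 have their highest marks on a primary array of replicate 2.

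The disulfide isomerases differed among themselves. Pdia4 (ERp72, chr6:47726103-47726162) read -1.98 and -1.57 in WT primary, -1.97 and -1.42 in KO primary, 1.79 and 1.76 in WT secondary and 0.88 and -1.94 in KO secondary cells. Its WT secondary arrays stood above all others and KO secondary replicate 2 lay within the primary levels, with a change of 4.30 (SE 1.21) in WT and 1.54 (SE 1.21) in KO cells. Pdia3 (ERp57), the partner of Calr and Canx, at chr2:121129247-121129307, read 2.49 and 9.69, 3.44 and 6.50, 4.02 and 3.62, and 3.29 and 2.82 in the order WT primary, KO primary, WT secondary, KO secondary. Its change was -1.57 (SE 1.48) and did not pass the test, with the primary replicates far apart. Pdia6 (P5) had 4 probes between chr12:17295906-17295965 and chr12:17309997-17310056, each above background on 6 or 7 arrays. Their changes over both genotypes were 0.08, -2.23, 0.34 and -0.24, with SE of 1.83, 2.16, 1.59 and 0.86. Probe 2 read -4.64 and 6.88 in WT primary cells, the latter on the array of low signal, and between -4.99 and -1.73 elsewhere. Its change in KO against WT primary cells, -4.81 (SE 3.17), thus rests on that array.

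Among the transcription factors, Xbp1 gave the widest difference by genotype in secondary recipients. Its probe (chr11:5424970-5425029), which does not separate spliced from unspliced mRNA as far as the files state, read -3.36 and -4.44 in WT primary and -2.58 and -3.49 in KO primary cells. It read 2.94 and 0.39 in WT secondary cells, and -0.76 and -7.51 in KO secondary cells, the last not above background. Both WT secondary arrays lay above both KO secondary arrays, which differed from each other by more than the WT pair did. KO against WT in secondary recipients was -6.20 (SE 2.11, limma, Benjamini-Hochberg adjusted p = 0.797). It was -2.83 without KO secondary replicate 2 and -9.53 without KO secondary replicate 1, so its size rests on an array whose level is not above background. The change from primary to secondary cells was 6.31 (SE 2.11) in WT and -0.72 (SE 2.11) in KO cells, and the interaction was -6.85 (SE 2.99, limma adjusted p = 0.994).

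Atf4, which drives amino acid and redox genes when translation is slowed (chr15:80083904-80083963), read -2.12 and -2.26 in WT primary, -2.80 and -1.20 in KO primary, 0.58 and 1.96 in WT secondary and 2.34 and -3.96 in KO secondary cells. Ddit3, a promoter of cell death under lasting stress (chr10:126698411-126698714), read -0.20 and -2.30, -2.25 and -2.59, 3.15 and -1.44, and -0.03 and -1.81 in the same order. For both genes the secondary and primary arrays overlapped. Over both genotypes the change was 2.85 (SE 1.35) for Atf4 and 2.33 (SE 1.11) for Ddit3, and neither passed.

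**Figure D3:**
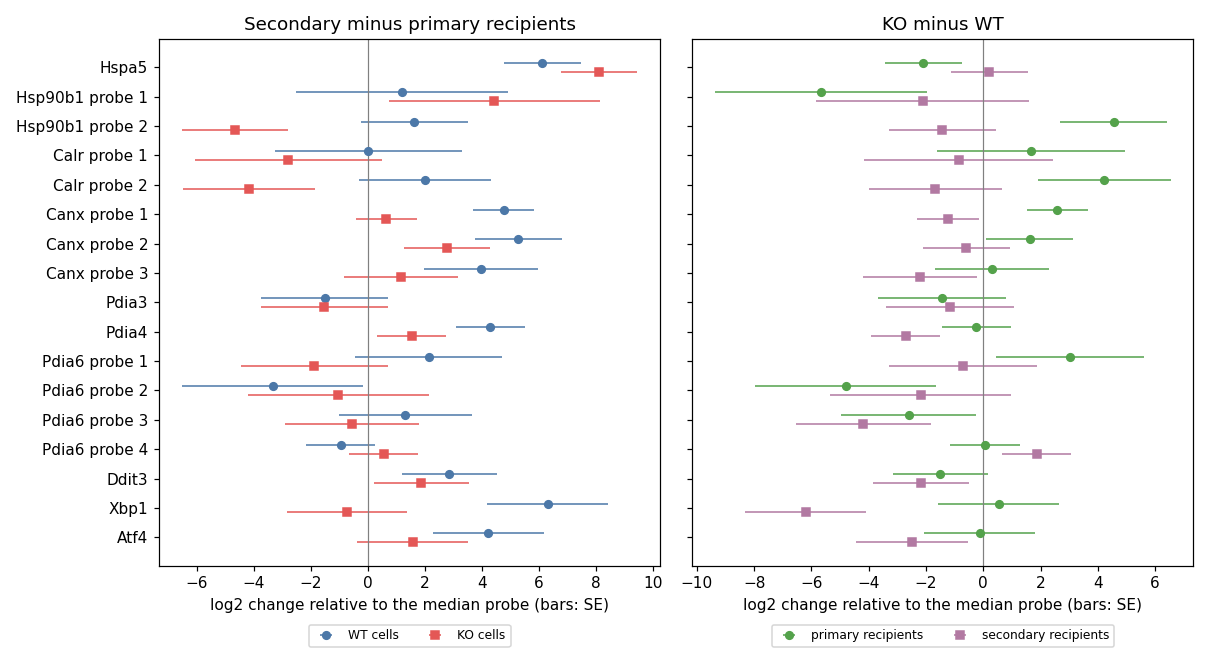
Log2 change relative to the median probe, with its SE, for the 17 probes: secondary minus primary recipients in WT and in KO cells (left), and KO minus WT in primary and in secondary recipients (right). Hspa5 is high on the left in both genotypes (6.13 and 8.13), and Xbp1 is lowest on the right in secondary recipients (-6.20).

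Over the 17 probes, the median log2 change from primary to secondary recipients was 2.33, with 11 above and 6 below the median probe of the array; the shift of that median probe, already taken out, was -0.53. It was 0.44 without WT primary replicate 1, 1.28 without WT primary replicate 2 and 1.32 without WT secondary replicate 1, and over the 5 member probes above background on all arrays (Hsp90b1 probe 2, both of Calr, Canx probe 1 and Pdia3) it was -0.68. The median was 2.14 in WT cells. It rose to 3.67 without WT secondary replicate 2, and fell below 2.14 but stayed positive without WT secondary replicate 1. In KO cells it was 0.55 and its sign was not stable: it was -0.31 without KO primary replicate 2, -0.82 without KO secondary replicate 1 and -2.09 over those 5 probes, against 0.99 and 1.70 without the other replicate of each group. The 10 HSC markers had a median change of 2.01 in the same comparison, with 7 above and 3 below the median probe and 1 called, and whether the share of HSC moved with the members was not tested. Groups of 4 arrays did not overlap for 2 members, higher (Hspa5 and Canx probe 2), beside 4.06% of all probes, and for 0 members, lower, beside 10.6%. No probe passed within WT or within KO cells (0% of probes; limma, p unadjusted under 0.05 for 4048 and 2043 probes, and for 5 and 2 members).

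In KO against WT cells of secondary recipients, 15 of the 17 probes lay below the median probe, with a median change of -1.68. Groups did not overlap for 7 members, lower, where 13.4% of all probes did so, and for 2, higher (Hspa5 and Pdia6 probe 4), where 31.7% did. Scaling by the array median gave 10 lower and 1 higher, beside 17% and 20.3% of all probes. For Hspa5 the change was 0.21 (SE 1.34). KO secondary replicate 2 was the lowest secondary array for every member probe except Hspa5, Canx probe 2 and Pdia6 probe 4. Without that array the median was -0.82, and without KO secondary replicate 1 it was -2.50. In primary recipients the median change was 0.06, between -0.25 and 0.68 on leaving out 1 array and 2.62 over the 5 probes above background on all arrays. There were 2 members higher without overlap (Hsp90b1 probe 2 and Canx probe 1, beside 17.4% of all probes) and 1 lower (Pdia6 probe 3, beside 8.45%). For Pdia6 probe 3 the KO primary replicate 2 level, -3.36, was not above background. The floor of that array, -1.20, lies above the lower WT primary level, -2.15, so this separation is not established. Over both recipients the median was -0.90, between -1.37 (without WT primary replicate 1) and -0.11 (without WT primary replicate 2) on leaving out 1 array, and 0.68 over those 5 probes. There were 0 members without overlap in either direction, beside 1.32% higher and 0.449% lower of all probes. Adjusted p passed for 0% of probes in each genotype comparison and in the interaction (limma, unadjusted p under 0.05 for 1215 probes in primary, 1942 in secondary, 1518 over both recipients and 1284 in the interaction).

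The other ER and unfolded protein response genes, 43 of 45 listed being on the array under the names searched, were split from primary to secondary recipients: 23 lay above and 20 below the median probe, with a median of 0.23. Manf, an ER stress-induced secreted factor, was the 1 gene called, with levels of -3.78, -3.80, -3.28 and -2.46 in primary and 2.07, 0.27, 1.73 and 1.69 in secondary arrays. Its change was 5.30 (SE 0.71, limma adjusted p = 0.0468), and as for Hspa5 the call was lost on leaving out any 1 array. Higher without overlap were 6 genes: Manf, Herpud1, which acts in ER-associated degradation (5.38, SE 0.99), Ero1l (3.14), Vcp (3.06), Hyou1 (2.65) and Sec61b (2.58). Of these, Herpud1 was above background on the 4 secondary arrays alone, Hyou1 and Ero1l on 5 arrays and Manf on 6. The size of their changes thus rests on primary readings not above background. On KO primary replicate 2 the floor, -1.20, lies above secondary levels of Ero1l and Hyou1, so their separation is not established. Lower without overlap were 7 genes: Uggt1 (-1.60), Syvn1 (-1.56), Asns (-0.44), Chac1 (-1.72), Atf3 (-0.90), Cebpb (-1.13) and Cebpg (-1.65). Chac1 was above background on 6 arrays and Atf3 on 7, so primary readings not above background enter their results. Over all probes tested, 4.06% were higher and 10.6% lower without overlap. Asns, Chac1 and Atf3 are known targets of Atf4, but so are Ddit3, whose change here was 2.33 (SE 1.11), and Trib3 (-0.01, SE 0.75). Atf4 itself changed by 2.85 (SE 1.35), and its activity was not tested. Other probes of Hyou1 (-0.68), Uggt1 (2.32 and 0.34), Cebpb (2.08) and Cebpg (2.89 and -2.89) did not all share the sign, whereas the second probes of Ero1l (0.54), Vcp (4.09) and Syvn1 (-1.20) did. Among the brightest genes and those of widest span, Ern1 read 9.43 and 10.57 on the 2 primary arrays of low signal and between -0.54 and 1.68 elsewhere. Sec61a1 read 10.93 on KO primary replicate 2 and -1.08 on WT primary replicate 2. Ganab, a glucosidase subunit, read 7.71 and 6.49 on the same 2 arrays and at most 3.90 elsewhere, and its partner Prkcsh read 8.15 on WT primary replicate 2 and -0.72 on KO primary replicate 2. Ppib, an ER cyclophilin, read 7.34 and -0.05 there.

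**Figure D4:**
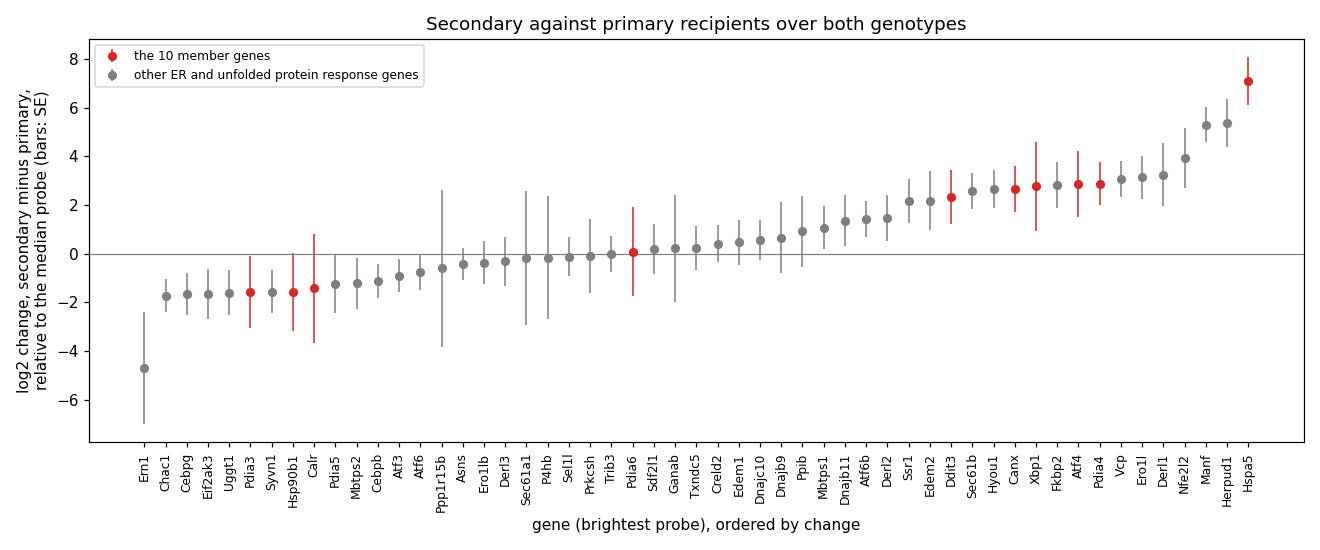
Log2 change from primary to secondary recipients over both genotypes, relative to the median probe, with SE, for the brightest probe of each of the 10 members (red) and of the 43 other genes (grey). Hspa5 (7.09), Herpud1 (5.38) and Manf (5.30) are at the high end, each with some or all primary readings not above background.

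The full ER stress response element was present in the promoters of 37 genes, and 17 probes of those that are not members were tested, 7 above and 10 below the median probe, with a median change of -0.31. Cytosolic and mitochondrial chaperones (13 of 15 listed) had a median change of 0.71, between -1.52 and 6.35, with 0 called. Dnaja1 (4.21) was higher without overlap and Hsf1 (-1.52) lower, beside the same 4.06% and 10.6% of all probes.

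Over the 8 arrays, the member whose pattern was closest to the mean of the 10 genes was Pdia4, with a root mean square difference of 0.91 in centred log2 level, and Hspa5 was farthest at 3.09. Of 8534 other probes, those closest to that mean were Galnt11 (0.38), Wdr61 (0.45), Klhl6 (0.45), Bcat2 (0.48) and Dnajb1 (0.50), against a median of 1.92. The brightest probe of Dnajb1 is a different one. It read 3.77, -0.39, 3.29 and -0.61 on the primary arrays and 0.85, -0.61, 1.30 and 1.19 on the secondary arrays, with a change of -0.31 (SE 1.21). The median absolute difference between replicates of members against all probes was 2.10 and 1.60 in WT primary, 0.90 and 1.78 in KO primary, 0.52 and 0.91 in WT secondary, and 1.78 and 1.22 in KO secondary cells.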

How the data were processed

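Per the file headers, the authors' deposited scanner files hold spot intensities made with Agilent Feature Extraction 10.5.1.1, as a processed signal after background subtraction. The deposited series matrix holds a ratio of that signal to the array's median and was used as an alternative. Outlier spots were left out and spots of a probe averaged; of 41174 probes, 41048 had a value on every array, and no spot was saturated. The level was log2 intensity minus the array's 75th percentile. Probes detected above background by all arrays of some group (32775) were fitted with limma 3.58.1 in R 4.3.3, with 4 groups (4 residual degrees of freedom) or additively (5), with Benjamini-Hochberg adjustment over all probes and a threshold of 0.05. Tables were made in Python 3.11.15, and the fit was tested on simulated data.

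Changes are relative to the median probe tested, whose shift lay between -0.75 and 0.40; p-values refer to the change before centring. "At least N-fold" sets the brighter mean against the lowest signal above background. Members and lists were chosen with earlier results of these data known. Every member probe is described. Of the other listed genes, values are given for the 4 of highest mean and the 4 of widest span. Those without overlap or called, and Trib3, were named after their values were seen. Probe positions are mm8, as in the files. Alternatives were other background correction, scaling, filters, the deposited matrix, slide and replicate blocks and leaving out arrays. The number of arrays limits the precision.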

Additional observations from a re-analysis of the deposited data

How the results depend on the processing

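The count of probes called from primary to secondary recipients over both genotypes, 103, was kept by none of the alternatives run. It was 1 with normexp background, 543 with quantile normalization and 224 with slide as a random block. It was 0 with the array median as scale, with the deposited matrix, with no filter, with probes above background on all arrays, without the 2 arrays of low signal, and from 0 to 0 on leaving out each array. With the replicate number as a block it was 0; replicate numbers did not pair the samples (correlations of replicate differences between -0.039 and 0.155). Hspa5 was called in 2 of 16 alternatives, with adjusted p from 0.0107 to 0.208 and a change from 5.28 to 8.07, so its direction held in all 16; Manf was also called in 2, with a change from 3.45 to 5.62. KO against WT in primary recipients gave 0 to 591 on leaving out each array, with 591 only without WT primary replicate 1, which leaves 1 WT primary array, of low signal, assumed to vary like the other groups. The counts of the other comparisons did not move. Low signal on replicate 2 of both primary groups limits what can be said of members near background.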
